A study of Arabidopsis thaliana with 4 samples.

Results

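Sucrose leaves the phloem of Arabidopsis thaliana as the main transported sugar and is then split by enzymes of separate families. Sucrose synthases (SUS) cleave it reversibly with UDP into UDP-glucose, a precursor of cellulose and callose, and fructose. Neutral invertases hydrolyse it irreversibly to glucose and fructose inside the cell. The 10 genes described here are SUS1 to SUS6 and the neutral invertases A/N-InvC, CINV1, CINV2 and A/N-InvA, picked by locus from 33602 genes in the tables. All 10 passed the filter on low counts, as did 19474 genes in all. SUS1 and A/N-InvC were known from an earlier fit of these libraries to differ between the genotypes, and the other 8 were added as their relatives. Differences of these 10 genes are therefore given as descriptions and not as tests.

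The libraries came from whole seedlings labelled 12 das, either Col-0 (WT) or the overexpressor line sORF1511-ox #7. Each genotype had 2 libraries, called biological replicates in the labels, and each library pooled 5 seedlings and used 200 ng of RNA enriched for poly(A). The promoter of the transgene is not given in the sources used here, a single line stands for the overexpressor, and the sORF1511 transcript itself was not analysed here. Totals lay between 13974460 and 25740234 estimated reads, and chloroplast ribosomal RNA took 28.1% of WT replicate 1 against 0.956% to 1.29% of the others. Levels are given as CPM (read counts scaled to library size, with TMM) to compare libraries, or as TPM (per length) to compare genes. Each log2 fold change sets the overexpressor over WT and carries its SE from edgeR after the ± sign.

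Both SUS1 and A/N-InvC stood about 4-fold higher in the overexpressor, SUS3 stood higher still in fold, and the sucrose synthases SUS4, SUS5 and SUS6 had lower values there. CINV1, CINV2 and A/N-InvA had fold changes near 0. In edgeR's fit over all genes 2 of the 10 were past an adjusted p of 0.05, where 0.149% of all genes tested were past it, and both were higher (0.139% of all genes), with 0 lower (0.0103%). At an unadjusted p below 0.05 there were 3 of the 10, all higher, against 21.7% of all genes in either direction. The libraries of the genotypes did not overlap in 6 of the 10, against 57.1% of all genes tested, and 3 of those were higher in the overexpressor, against 28.7%. The log2 fold change was above 0 in 5 of the 10, against 48.5% of all genes tested. The median log2 fold change of the 10 was -0.02, beside -0.01 over all genes tested.

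**Figure D1:**
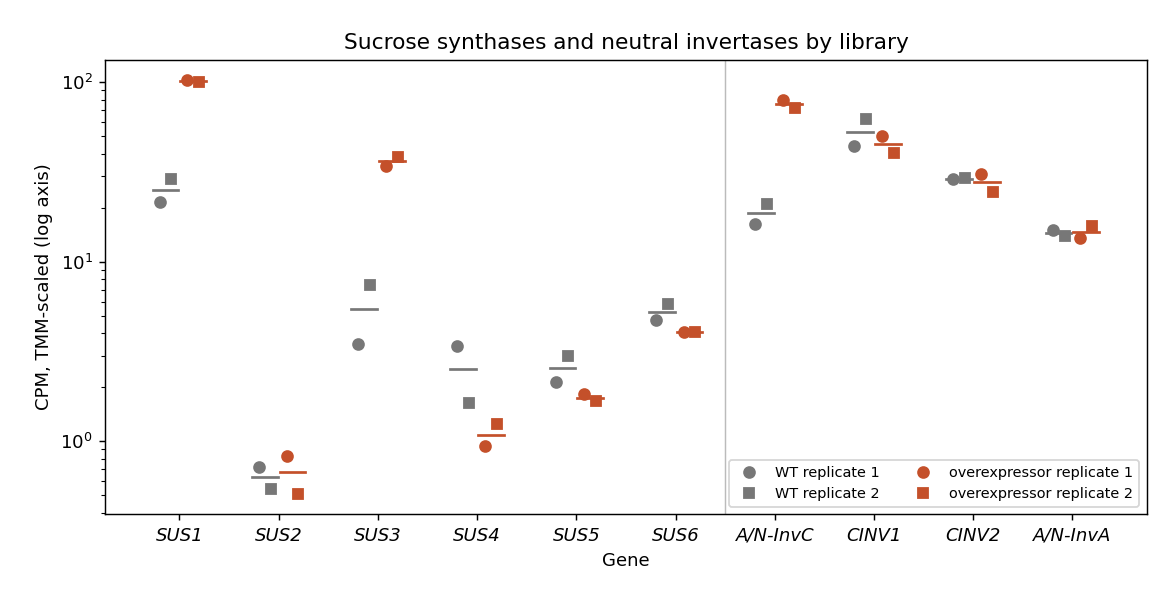
CPM of the 10 genes (log axis) in the 2 WT libraries (grey) and the 2 overexpressor libraries (orange), with circles for replicate 1, squares for replicate 2 and lines for the mean of each genotype. SUS1, SUS3 and A/N-InvC are higher in both overexpressor libraries, while SUS4, SUS5 and SUS6 are lower in both.

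SUS1 (AT5G20830) and SUS4 (AT3G43190) form a close pair within the family, both known for induction by low oxygen. SUS1 had 21.5 and 28.8 CPM in WT replicates 1 and 2, and 102 and 99.9 CPM in overexpressor replicates 1 and 2. Both overexpressor libraries were above both WT libraries, and they differed from each other by less than the WT libraries did. The log2 fold change was 2.0 ± 0.16, from 1035 reads in WT and 4705 in the overexpressor. The call at an adjusted p of 0.05 was lost with limma-voom and without either overexpressor library, with log2 fold changes from 1.98 to 2.03 there.

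SUS4 went the other way. It had 3.40 and 1.63 CPM in the WT libraries and 0.936 and 1.24 CPM in the overexpressor libraries. The genotypes did not overlap, but WT replicate 1 was well above the rest and the whole difference rests on 83 WT and 52 overexpressor reads. The log2 fold change was -1.15 ± 0.47 with a 95% interval from -2.33 to 0.04, and it was -0.55 without WT replicate 1 and -1.62 without WT replicate 2. Per length, SUS1 exceeded SUS4 by 6.05 and 16.9 times in the WT libraries and by 105 and 77.0 times in the overexpressor libraries, as ratios of TPM. Close copies can share reads. The deposited estimates of all 10 genes were whole numbers within 0.002 in each of the 4 libraries, and how the counting treated shared reads is not given in the sources used here.

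SUS2 (AT5G49190) and SUS3 (AT4G02280) are the pair best known from seeds, and SUS3 is also known for induction by water loss. SUS3 had 3.49 and 7.45 CPM in the WT libraries and 34.1 and 38.4 CPM in the overexpressor libraries. Both overexpressor values lay above both WT values, and the WT libraries themselves differed by 1.08 on the log2 scale, with WT replicate 2 the higher one. The log2 fold change was 2.67 ± 0.34 with a 95% interval from 1.81 to 3.53, the highest of the 10 genes but not past the threshold in edgeR. DESeq2 called 3 of the 10 genes higher, SUS3 among them, where it called 4.40% of all genes higher, and 0 of the 10 lower, where it called 1.48%. Without WT replicate 1 the log2 fold change of SUS3 was 2.30, without WT replicate 2 it was 3.38, and it was past the threshold in both cases. Without overexpressor replicate 1 or 2 it was 2.79 and 2.60 and not past the threshold.

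SUS2 was barely detected. It had between 8 and 16 reads in a library, that is 0.715 and 0.542 CPM in WT against 0.832 and 0.510 CPM in the overexpressor. The genotypes overlapped, and with a 95% interval from -1.11 to 1.33 around a log2 fold change of 0.11 no difference was detectable at this depth. Seed storage and oil body genes, used as seed markers (OLEO1, OLEO2, CRA1, CRC, SESA1 and SESA3), were also near 0. Their summed level was 0.179 and 0.0723 CPM in WT against 0.832 and 0.182 CPM in the overexpressor, with CRC and SESA3 at 0 in every library.

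SUS5 (AT5G37180) and SUS6 (AT1G73370) are the sucrose synthases of sieve elements, the conducting cells of the phloem. SUS5 had 2.15 and 2.97 CPM in the WT libraries and 1.82 and 1.68 CPM in the overexpressor libraries. SUS6 had 4.74 and 5.79 CPM in WT against 4.06 and 4.08 CPM in the overexpressor. Both genes were lower in each overexpressor library than in either WT library, by a small margin. The genotypes did not overlap, in either direction, in 57.1% of all genes tested. The log2 fold changes were -0.57 ± 0.30 for SUS5 and -0.38 ± 0.20 for SUS6, and the 95% intervals, -1.34 to 0.20 and -0.90 to 0.14, include 0. Without WT replicate 2 these values were -0.30 for SUS5 and -0.22 for SUS6. Per length, SUS6 exceeded SUS5 by between 1.64 and 2.07 times in every library.

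Of the tested sieve element genes outside the family, 5 had a log2 fold change below 0 and 1, APL, had one above 0. Of these 6 markers 0 were past an adjusted p of 0.05 in edgeR, and 4 were lower at an unadjusted p below 0.05, against 9.81% of all genes tested. CALS7, the callose synthase of sieve plates, had 5.81 and 5.90 CPM in WT against 2.50 and 2.73 CPM in the overexpressor, a log2 fold change of -1.16 ± 0.20 (adjusted p = 0.0938 in edgeR with Benjamini-Hochberg adjustment). It was the marker of this list that DESeq2 called lower, against 1.48% of all genes. The phloem transcription factor gene NAC086 had 0.626 and 0.904 CPM in WT against 0.260 and 0.328 CPM in the overexpressor, at -1.39 ± 0.48. SEOR1 and SEOR2, which encode filament proteins of sieve elements, had log2 fold changes of -0.35 ± 0.13 and -0.48 ± 0.18, and the phloem regulator APL one of 0.03 ± 0.19. The summed level of the sieve element list was 88.2 and 111 CPM in WT against 73.5 and 81.8 CPM in the overexpressor, and no marker of it was at 0 in all libraries. In bulk samples such as these, fewer cells of a type and less RNA per cell cannot be told apart, and the part of tissue share in the lower SUS5 and SUS6 values was not tested.

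**Figure D2:**
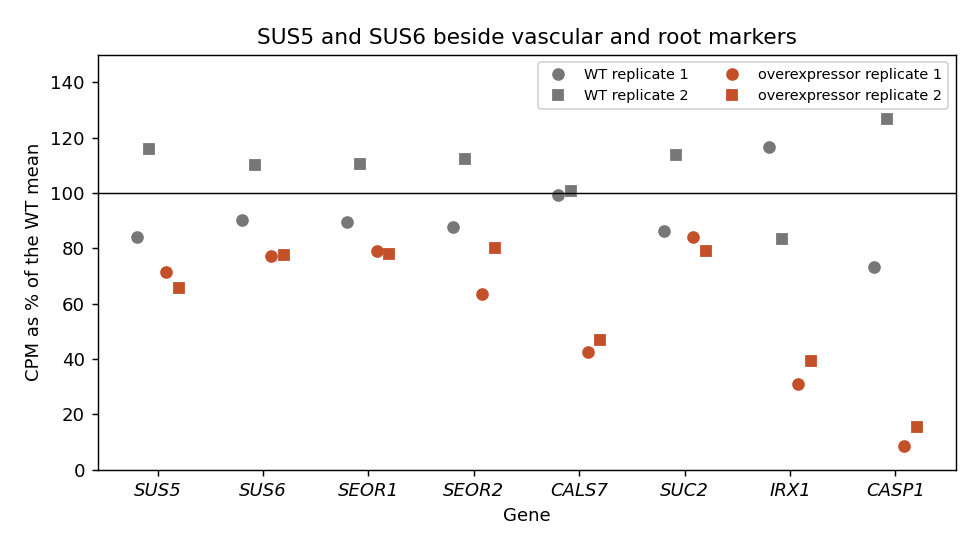
CPM of SUS5, SUS6 and 6 marker genes in each library, as a percentage of the mean of the 2 WT libraries (line at 100). SUS5, SUS6, the sieve element genes SEOR1, SEOR2 and CALS7, the companion cell transporter SUC2, the xylem gene IRX1 and the endodermis gene CASP1 are lower in both overexpressor libraries than in either WT library. Among all genes tested, 57.1% had no overlap between the genotypes, in either direction. Not every marker of these lists was lower. The sieve element gene APL and the companion cell gene AHA3, not drawn, had log2 fold changes of 0.03 and 0.12, and their genotypes overlapped.

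The companion cell markers did not share 1 direction. The 4 companion cell markers summed to 345 and 398 CPM in WT against 320 and 337 CPM in the overexpressor. Of 3 tested, 1, the sulfate transporter SULTR2;1, was lower at an unadjusted p below 0.05, at -0.49 ± 0.09. DESeq2 also called SULTR2;1 lower. At that unadjusted p 9.81% of all genes tested were lower, and DESeq2 called 1.48% of all genes lower. The proton pump gene AHA3 had 123 and 159 CPM in WT against 143 and 163 CPM in the overexpressor, at 0.12 ± 0.15, and its genotypes overlapped. The summed level of 6 xylem markers was 84.8 and 75.2 CPM in WT against 53.2 and 53.1 CPM in the overexpressor. Of these 6, 4 were lower at an unadjusted p below 0.05, against 9.81% of all genes tested. These 4 were the cellulose synthase genes of secondary walls IRX1, IRX5 and IRX3, at -1.49 ± 0.25, -0.95 ± 0.18 and -0.81 ± 0.21, and the xylem peptidase gene XCP2, at -0.38 ± 0.13. Of 7 root endodermis markers 4 were tested and 3 were lower at that level, against the same 9.81%. The sum of all 7 was 16.7 and 29.4 CPM in WT against 5.41 and 6.67 CPM in the overexpressor. CASP1, ESB1 and CASP4, which act in the Casparian strip, stood at -3.04 ± 0.43, -1.49 ± 0.23 and -2.39 ± 0.61, and the regulator MYB36 at -1.53 ± 0.71. None of the xylem and endodermis markers was past an adjusted p of 0.05 in edgeR. DESeq2 called 2 of each list lower, against 1.48% of all genes. The summed green tissue markers, RBCS1A, LHCB1.3, RCA, LHCB2.1 and LHCA1, were 48593 and 51099 CPM in WT against 59803 and 55829 CPM in the overexpressor, with 0 of 5 past an unadjusted p of 0.05 in edgeR and 0 called by DESeq2. What these tissue markers contribute to the differences in SUS1, SUS3 and A/N-InvC was not tested.

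The composition of the sucrose synthase family therefore differed between genotypes. SUS1 held 58.9% and 60.6% of the summed TPM of the 6 genes in the WT libraries and 71.1% and 68.5% in the overexpressor libraries. The share of SUS3 was 9.43% and 15.5% in WT and 23.4% and 26.1% in the overexpressor. SUS4, SUS5 and SUS6 held on average 6.66%, 7.01% and 12.4% in WT and 0.785%, 1.40% and 2.77% in the overexpressor. Shares do not overlap between genotypes for any of the 6 genes. That includes SUS2, at 2.27% and 1.32% in WT and 0.669% and 0.406% in the overexpressor, although its CPM overlapped. Shares within a family are tied to each other, so higher SUS1 and SUS3 lower the other shares by themselves. The summed TPM of the family was 12.1 and 21.4 in WT and 57.4 and 59.6 in the overexpressor, a ratio of 3.50, or 3.08 when TPM was rescaled over nuclear genes to set aside the ribosomal reads of WT replicate 1. Without SUS1 and SUS3, the other 4 genes summed to 3.83 and 5.12 TPM in WT and to 3.20 and 3.22 in the overexpressor, a ratio of 0.717. Rescaled, they summed to 5.32 and 5.19 in WT and to 3.24 and 3.25 in the overexpressor, a ratio of 0.617. The likeness of the rescaled WT sums hides opposite differences between WT replicates 1 and 2. Rescaled SUS4 was 1.63 and 0.774 there, while SUS5 was 1.14 and 1.56 and SUS6 was 2.16 and 2.56.

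**Figure D3:**
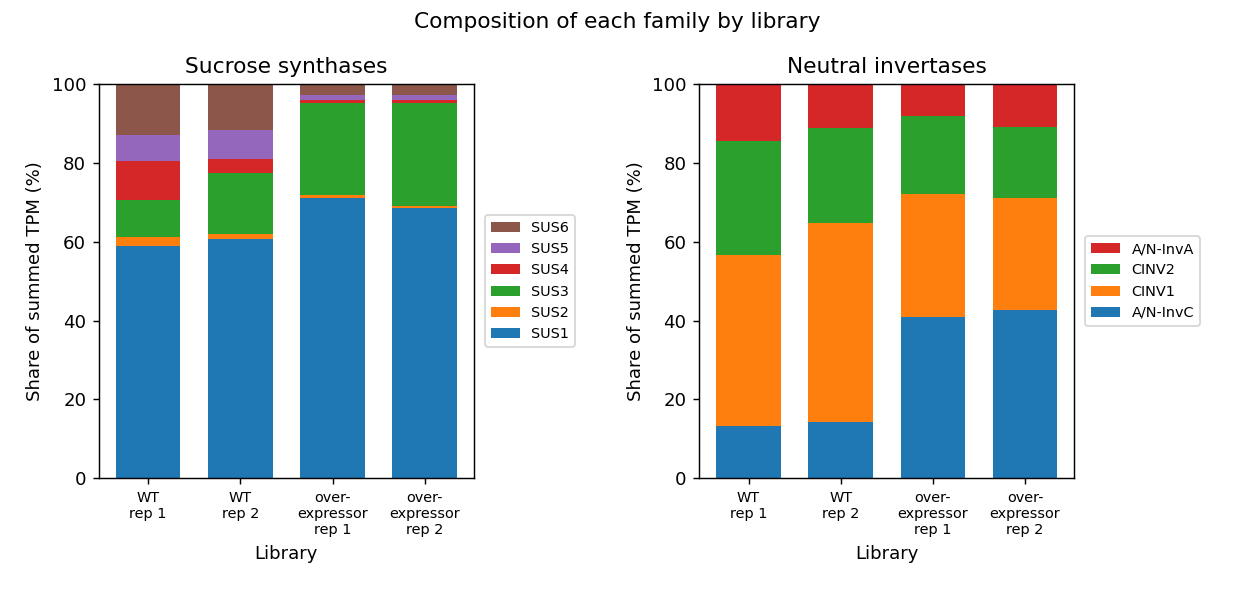
Share of each gene in the summed TPM of the 6 sucrose synthases (left) and of the 4 neutral invertases (right), in percent, with 1 bar per library. SUS1 and SUS3 together fill most of the sucrose synthase bar in every library, and a larger part of it in the overexpressor than in WT. A/N-InvC rises from 13.3% and 14.2% of the sum of these 4 invertases in WT to 41.0% and 42.6% in the overexpressor. Over all 9 neutral invertases listed, its share was 7.97% and 8.86% in WT and 27.8% and 27.4% in the overexpressor.

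Among the neutral invertases, A/N-InvC (AT3G06500) is known as a mitochondrial form, as is its relative A/N-InvA (AT1G56560). A/N-InvC had 16.3 and 20.9 CPM in the WT libraries and 79.3 and 71.9 CPM in the overexpressor libraries. The overexpressor libraries were well above both WT libraries, with a log2 fold change of 2.01 ± 0.15 from 760 WT and 3498 overexpressor reads. As for SUS1, the call was lost with limma-voom and without either overexpressor library, with log2 fold changes from 1.96 to 2.09. A/N-InvA had 15.1 and 13.9 CPM in WT against 13.5 and 15.7 CPM in the overexpressor, so that the genotypes overlapped. Its log2 fold change was 0.02 with a 95% interval from -0.34 to 0.37, beside the 2.01 of A/N-InvC. The TPM of A/N-InvC was 0.913 and 1.28 times that of A/N-InvA in WT and 4.97 and 3.88 times in the overexpressor. The summed TPM of the 4 invertases had a ratio of overexpressor over WT of 1.37, or 1.20 when rescaled over nuclear genes. Over all 9 neutral invertases listed, these ratios were 1.28 and 1.11. In CPM the 4 invertases summed to 104 and 126 in WT and to 174 and 152 in the overexpressor. Rescaled TPM ran lower than CPM in the overexpressor: the rescaled mean of A/N-InvA was 9.26 in WT and 8.34 in the overexpressor. One other gene, AT1G56555, overlaps A/N-InvA in the TAIR10.1 gene reference, and no other member overlaps a gene there.

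CINV1 (AT1G35580) and CINV2 (AT4G09510) encode cytosolic invertases that are known to be needed together for normal root growth. CINV1 had 44.1 and 62.0 CPM in WT against 50.3 and 40.1 CPM in the overexpressor. CINV2 had 28.8 and 29.2 CPM in WT against 31.0 and 24.5 CPM in the overexpressor. The genotypes overlapped for both genes. The log2 fold changes were -0.24 with a 95% interval from -0.75 to 0.28 for CINV1, and -0.06 with an interval from -0.42 to 0.29 for CINV2. The direction of CINV1 turned to 0.03 without WT replicate 2, and that of CINV2 to 0.10 without overexpressor replicate 2.

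**Figure D4:**
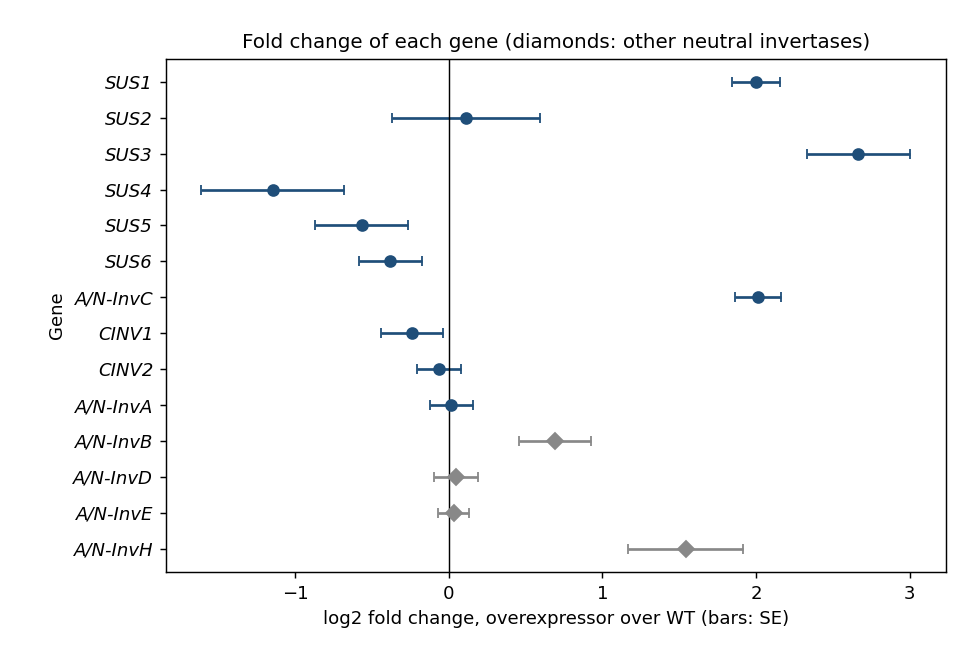
Log2 fold change of overexpressor over WT (points) with its SE (bars) for the 10 genes (circles) and the 4 tested other neutral invertases (diamonds). SUS1, SUS3 and A/N-InvC lie at 2.0, 2.67 and 2.01, and 4 genes, CINV2, A/N-InvA, A/N-InvD and A/N-InvE, lie within 0.1 of 0.

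The order of the genes per length differed between genotypes. In both WT libraries CINV1 had the highest TPM, at 20.7 and 39.5, followed by CINV2 at 13.9 and 19.1 and SUS1 at 7.11 and 12.9. A/N-InvC and A/N-InvA changed places between the WT libraries, as did SUS3 with SUS6 and SUS4 with SUS5, so these neighbours did not differ beyond the spread. In both overexpressor libraries SUS1 led with 40.8 and 40.9 TPM, followed by A/N-InvC with 37.4 and 34.9 and CINV1 with 28.5 and 23.3. SUS3, at 13.4 and 15.5 TPM, changed places with CINV2, at 17.9 and 14.6 TPM, between those libraries. SUS2 had the lowest TPM in all 4 libraries, from 0.242 to 0.384. SUS1 stood at 0.343 and 0.327 times the TPM of CINV1 in WT and at 1.43 and 1.75 times in the overexpressor.

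Each of SUS1 and A/N-InvC was the gene nearest to the other among all genes tested, by Euclidean distance of centred log2 CPM over the 4 libraries (0.087). The TPM of SUS1 was 1.12, 1.16, 1.09 and 1.17 times that of A/N-InvC in WT replicates 1 and 2 and overexpressor replicates 1 and 2. The next nearest to SUS1 were the glucosyltransferase gene UGT75B1 (AT1G05560), at a distance of 0.12, and CYP710A1 (AT2G34500), a sterol desaturase gene, also at 0.12. UGT75B1 had 12.0 and 17.9 CPM in WT against 58.4 and 59.5 CPM in the overexpressor. CYP710A1 had 0.894 and 1.3 CPM in WT against 4.32 and 4.34 CPM in the overexpressor. The same 2 genes were next nearest to A/N-InvC, at 0.19 and 0.18. The likeness rests on 4 libraries and mostly on the difference between genotypes, so it is a description.

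Other genes that split or make sucrose were compared in the same fit. None of the tested genes on the lists for other neutral invertases, acid invertases and their inhibitors, sucrose synthesis, hexose phosphorylation, sucrose transport and low oxygen was past an adjusted p of 0.05 in edgeR. DESeq2 called 2 of them higher, both on the low-oxygen list, and 0 lower, against 4.40% and 1.48% of all genes. Of the other neutral invertases 4 of 5 were tested, with 2 higher at an unadjusted p below 0.05, against 11.9% of all genes tested. A/N-InvH had 0.447 and 0.506 CPM in WT against 1.3 and 1.53 CPM in the overexpressor, a log2 fold change of 1.54 ± 0.38 (adjusted p = 0.132 in edgeR). A/N-InvB had 5.45 and 7.63 CPM in WT against 9.26 and 12.1 CPM in the overexpressor, a log2 fold change of 0.69 ± 0.24 (adjusted p = 0.193 in edgeR). The genotypes did not overlap for these 2 of the 4 tested genes, against 57.1% of all genes tested in either direction and 28.7% higher. A/N-InvD and A/N-InvE, the latter a plastid form, had log2 fold changes of 0.05 ± 0.14 and 0.03 ± 0.10. A/N-InvF had 1 read in all.

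Acid invertases, which act in the vacuole and the cell wall, had 0 of 6 tested genes at an unadjusted p below 0.05 in edgeR and 0 called by DESeq2 and a median log2 fold change of -0.49. The cell wall forms cwINV1 and cwINV3 stood at -0.28 ± 0.13 and -0.70 ± 0.33 and cwINV6 at -1.29 ± 0.67, while the vacuolar form VI1 stood at 0.32 ± 0.21. Without WT replicate 2 the median of this list was 0.15. The invertase inhibitors C/VIF1 and C/VIF2 stood at 0.36 ± 0.40 and -0.16 ± 0.15, also with 0 at an unadjusted p below 0.05 in edgeR and 0 called by DESeq2. In sucrose synthesis 0 of 7 tested genes were past an unadjusted p of 0.05 in edgeR and 0 were called by DESeq2. The sucrose phosphate synthase SPSA2 came nearest, with 6.79 and 14.5 CPM in WT against 23.5 and 17.9 CPM in the overexpressor, a log2 fold change of 0.92 ± 0.36. The sucrose phosphatase genes AT2G35840 and AT3G54270 stood at 0.20 ± 0.09 and -0.66 ± 0.33, and the synthase SPSC at -0.30 ± 0.18.

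Over 11 tested genes for enzymes that take up the products of sucrose cleavage, the median log2 fold change was 0.00. At an unadjusted p below 0.05 the plastid hexokinase HXK3 was lower, at -0.85 ± 0.25, and the hexokinase-like HKL1 higher, at 0.29 ± 0.11. These 2 of 11 genes compare with 21.7% of all genes tested in either direction. Next by p came HXK1, at -0.15 ± 0.09, and the fructokinase FRK7 (AT5G51830), at 0.20 ± 0.13. UGP1 and UGP2, the UDP-glucose pyrophosphorylases that act on the UDP-glucose released by sucrose synthase, stood at -0.03 ± 0.08 and 0.01 ± 0.12. Of 7 sucrose transporters, 1 was lower at an unadjusted p below 0.05, the sucrose symporter SUC1 with 92.2 and 96.1 CPM in WT against 67.0 and 78.1 CPM in the overexpressor. SUC2, which loads sucrose into companion cells, stood at -0.29 ± 0.15, the sucrose exporter SWEET12 at -0.38 ± 0.23 and the symporter SUC5 at -0.49 ± 0.38. The 1 lower transporter of 7 compares with 9.81% of all genes tested, and 1 of the 7 had a log2 fold change above 0, against 48.5% of all genes.

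Since SUS1 and SUS4 are counted among genes of low oxygen, 12 other genes of that response were listed, of which 11 were tested. ADH1, the alcohol dehydrogenase of fermentation, had 3.49 and 4.41 CPM in WT against 46.4 and 105 CPM in the overexpressor, a log2 fold change of 4.23 ± 0.46 (adjusted p = 0.0564 in edgeR with Benjamini-Hochberg adjustment). SRO5 and the pyruvate decarboxylase PDC1 stood at 2.90 ± 0.55 and 1.95 ± 0.62. These 3 genes were higher at an unadjusted p below 0.05, against 11.9% of all genes tested. DESeq2 called ADH1 and SRO5 higher, against 4.40% of all genes. ADH1 is also known to respond to abscisate and water loss, and SRO5 to salt. The other 8 tested genes had log2 fold changes between -1.05 and 0.41, among them the oxygen-sensing oxidases PCO1 and PCO2 at -1.02 ± 0.52 and -0.25 ± 0.42, the haemoglobin PGB1 at -0.85 ± 0.44, LBD41 at -0.15 ± 0.27 and HRE1 at 0.41 ± 0.43. SUS4, at -1.15, lay below all of them, and SUS1, at 2.0, lay between PDC1 and SRO5.

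**Figure D5:**
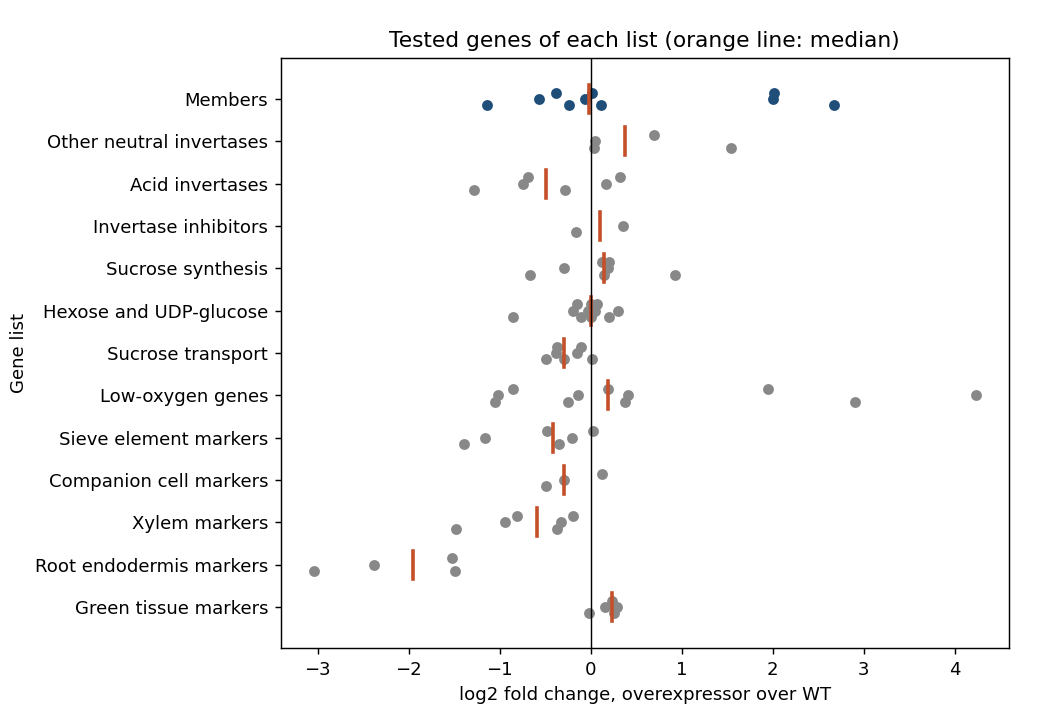
Log2 fold change of overexpressor over WT for the tested genes of each list (points) with the median of the list (orange line). The 10 genes (blue) spread from -1.15 to 2.67 around a median of -0.02, the low-oxygen genes spread up to 4.23, and the root endodermis and xylem markers lie below 0.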

How the data were processed

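Per the file headers, the authors deposited for each library estimated counts per gene, TPM, length and effective length. Per the submitters' processing notes DESeq2 was used, with no version; the quantifier, the build and the annotation are named in none of the sources used here, so no sequence or coordinate is printed. The deposited TPM values count chloroplast ribosomal RNA in their total. Of 33602 identifiers 32835 matched TAIR10.1 locus tags, used for names.

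Estimated counts were rounded and tested with edgeR 4.0.16 (R 4.3.3) without covariates: filterByExpr (minimum count 10, minimum total 15), TMM, glmQLFit, glmQLFTest and Benjamini-Hochberg adjustment over 19474 genes. The SE is the unshrunk coefficient over the square root of F, and 95% intervals use edgeR's degrees of freedom. DESeq2 1.42.0 and limma 3.58.1 gave alternatives, and the fits were tested on simulated data. In a library 3 reads correspond to between 0.108 and 0.268 CPM. The replicates differed by more than counting noise, and nothing says how the pools were grown. With chloroplast ribosomal RNA counted in, the chi-square per degree of freedom was 400 between the WT replicates and 9.12 between the overexpressor replicates. Each library had its own pool, so differences between pools and between preparations cannot be told apart. The p-values therefore measure the spread between these libraries, which edgeR estimates per gene with information shared over all genes tested.

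The members and lists were chosen with earlier results of these data known. Named are all members, up to 4 genes per list by call and then p, and the 3 nearest genes to SUS1 and A/N-InvC; others were named after their values were seen.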

Additional observations from a re-analysis of the deposited data

How the results depend on the processing

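SUS1, SUS3 and A/N-InvC kept a log2 fold change above 0, and SUS4, SUS5 and SUS6 one below 0, under all 14 alternatives each. SUS3 passed an adjusted p of 0.05 under 8 of them. The count of members past the threshold was 2 higher and 0 lower, and 0 higher with limma-voom, which gave log2 fold changes of 1.98 for SUS1 and 1.98 for A/N-InvC. Leaving out 1 library gave from 0 to 3 members higher, with 0 without either overexpressor library, and values from 1.83 to 2.24 for SUS1 and from 1.87 to 2.22 for A/N-InvC. The 27 higher and 2 lower genes among all tested became 912 and 307 with DESeq2, 0 and 0 with limma-voom, 570 and 239 with scaling by library size only (where the median of all genes moved to 0.10), 305 and 57 with no low-count filter, 65 and 10 with at least 1 CPM in 2 libraries, 250 and 24 with limma-trend on log2(TPM + 1), and 163 and 21 without organelle genes. Leaving out 1 library gave from 0 to 1189 higher and from 0 to 1014 lower. The other listed genes of sucrose metabolism and low oxygen had 0 calls, and 2 higher with DESeq2, 3 with library size only, 1 with no filter, 1 with the CPM filter, 2 with limma-trend, 1 without organelle genes, and from 0 to 3 without 1 library. SUS2 changed direction to -0.12 without WT replicate 2 and -0.26 without overexpressor replicate 1, CINV1 to 0.034 without WT replicate 2, CINV2 to 0.10 without overexpressor replicate 2, and A/N-InvA to -0.042 without WT replicate 2 and -0.094 without overexpressor replicate 2. CINV2 stood at 0.055 with library size only, below the median of all genes there. Without 1 library SUS2 lay between -0.26 and 0.43, CINV1 between -0.45 and 0.034, CINV2 between -0.23 and 0.10 and A/N-InvA between -0.094 and 0.13. On log2(TPM + 1), which understates the change of low genes, SUS4, SUS5 and SUS6 stood at -0.43, -0.24 and -0.20. Tissue markers had 0 lower calls, and 6 with DESeq2, 4 with library size only, 3 with no filter, 1 with limma-trend, 2 with the replicate block, 3 without WT replicate 1 and 6 without WT replicate 2; the other alternatives gave 0. The causes were not tested. The share of A/N-InvC among the 4 invertases was 28.1 percentage points higher in the overexpressor by TPM and 30.3 by CPM, and from 27.2 to 28.9 without 1 library; that of SUS1 moved from 8.82 to 11.4.

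With the replicate number as a block, 329 genes were higher and 43 lower, 3 members (SUS3 joining) and 2 other listed genes were higher. The numbers do not come from a stated pairing, and replicate 1 of WT and of the overexpressor deviated together with a correlation of 0.058 over genes.

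With 2 libraries per genotype an exact permutation test cannot give a p below 0.333. Depth limits SUS2 (8 to 16 reads) and SUS4 (18 to 45 reads) most.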

Other observations

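The level of SUS6 relative to the sieve element gene SEOR1 was alike in all libraries: the TPM of SUS6 was 0.127 and 0.123 times that of SEOR1 in WT replicates 1 and 2 and 0.122 and 0.125 times in overexpressor replicates 1 and 2. For SUS5 the ratios to SEOR1 were 0.067, 0.075, 0.064 and 0.060 in the same order. Relative to SEOR2, SUS6 stood at 0.137, 0.128, 0.161 and 0.128, and relative to CALS7 at 1.73, 2.05, 3.42 and 3.15. The last ratio was higher in both overexpressor libraries than in either WT library. These pairs were chosen after their values were seen.

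The deposited gene length of SUS1 was 2879 bases in both WT libraries, and 2880 and 2886 bases in overexpressor replicates 1 and 2. For SUS6 the lengths were 2902, 2956, 2931 and 2925 bases in WT replicates 1 and 2 and overexpressor replicates 1 and 2. In 6 of the 10 genes, A/N-InvC among them, the length was the same in every library.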
